A study of Arabidopsis thaliana with 12 samples.

Results

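Shoots of the Arabidopsis mutant lcs7 were compared with those of the wild type Col-0 after both had grown on agar with 0.3 mM calcium. The difference is taken between 6 of the 12 arrays of the study, 3 of lcs7 and 3 of Col-0, which the labels call biological replicates. The 6 arrays were chosen by their titles alone. The lcs7 group carries a mutation of AVP1 in the Col-0 ecotype, and the labels do not say whether more than 1 line or allele was grown. The Col-0 group is the wild type of the same ecotype. All seedlings were 14 days old and grew on vertical plates of Yamagami medium with sucrose under long days. The 0.3 mM medium was shared by both genotypes, and the genotype is the only difference that the labels give. Harvest and hybridisation batches are not given. The other 6 arrays hold the same lines on 2 mM calcium. They enter no difference at 0.3 mM, but the fit pools the spread within all 4 groups, so they bear on its errors and p-values. Biotin-labelled cRNA made from total RNA was hybridised to Affymetrix ATH1 arrays, on which a probe set is a group of probes for 1 transcript. Of 22746 probe sets 13513 name 1 gene, and they gave 13356 genes to test.

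AVP1 is the vacuolar proton-pumping pyrophosphatase, which hydrolyses the pyrophosphate left over by biosynthesis and helps to acidify the vacuole. The proton gradient across the vacuolar membrane drives the exchangers that load the vacuole with calcium, the main calcium store of a leaf cell. Calcium also cross-links pectin in the cell wall and, as short rises in the cytosol, carries signals that calmodulin-like proteins and other sensors read, many of them in defence and wounding. No probe set used here names AVP1, so its transcript was not analysed here and the genotype was not checked by it.

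Arrays of lcs7 had a median signal of 180.6 to 187.6, against 174.4 to 177.6 in Col-0, and 18.1 to 19.0% of the probe sets of an lcs7 array and 17.5 to 19.3% of those of a Col-0 array had a signal under 20, near background. The labelled tissue was checked with marker genes of leaf, root and other tissues, few of which have a named probe set. RCA, the activase of Rubisco and the 1 of 10 leaf mesophyll markers measured, was among the brightest signals in every array. Of 16 root markers 3 were measured, with a summed signal of 4528 to 7107 in lcs7, against 1425 to 1723 in Col-0. Nearly all of that sum is PYK10, which was higher in lcs7, while the root hair expansins EXPA7 (13.1 to 27.8 in lcs7, against 8.4 to 45.1 in Col-0) and EXPA18 (34.0 to 52.5, against 53.0 to 57.4) stayed dim in both lines. The guard cell marker FMA had signals of 165 to 195 in lcs7 and of 182 to 325 in Col-0 (adjusted p = 0.279), and the measured seed (LEA) and meristem (CLV3) markers stayed under 40 in all 6 arrays. In RNA of whole shoots, fewer cells of a type and less RNA per cell cannot be told apart.

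Differences are given as lcs7 minus Col-0 on the log2 scale, ± the moderated SE of limma. That SE is for 3 arrays a group and uses the spread pooled within the 4 groups, not that of the compared arrays alone. The p-values are those of limma after Benjamini-Hochberg adjustment over all 13356 genes. A gene that is called passed an adjusted p of 0.05 on log2(signal). The verbs rose and fell are kept for such genes. Because a signal near the floor of 0.1 gives wide errors on that scale, the fit was repeated on log2(signal + 50), which shrinks the differences of dim genes. Array values are listed in the order of replicates 1, 2 and 3, and p-values measure the spread between replicates, pooled within the 4 groups of the study.

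On log2(signal), the difference passed in 2243 genes (16.8%), of which 934 were higher (6.99%) and 1309 lower in lcs7 (9.8%). On log2(signal + 50) the count was 2837 (21.2%), with 1280 higher (9.58%) and 1557 lower (11.7%). Of the genes called on log2(signal), 916 of the higher and 1283 of the lower ones were also called with the offset. The arrays of the lines did not overlap in 4763 genes (35.7%), 15.6% with lcs7 above Col-0 and 20% with lcs7 below it. Without lcs7 replicate 3 the count on log2(signal) was 1493, and with the 6 compared arrays alone, which give their own spread, it was 1322. All 934 genes called higher and 1305 of the 1309 called lower had arrays that did not overlap. The falls were more numerous but smaller than the rises. At least 2-fold differences in signal + 50 were reached by 328 of the genes called higher and by 135 of those called lower, and at least 4-fold differences by 67 and 3. In 93 of the genes called higher and 79 of those called lower the dimmer line had a signal under 20, and 17 and 24 of these were not called with the offset.

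**Figure D1:**
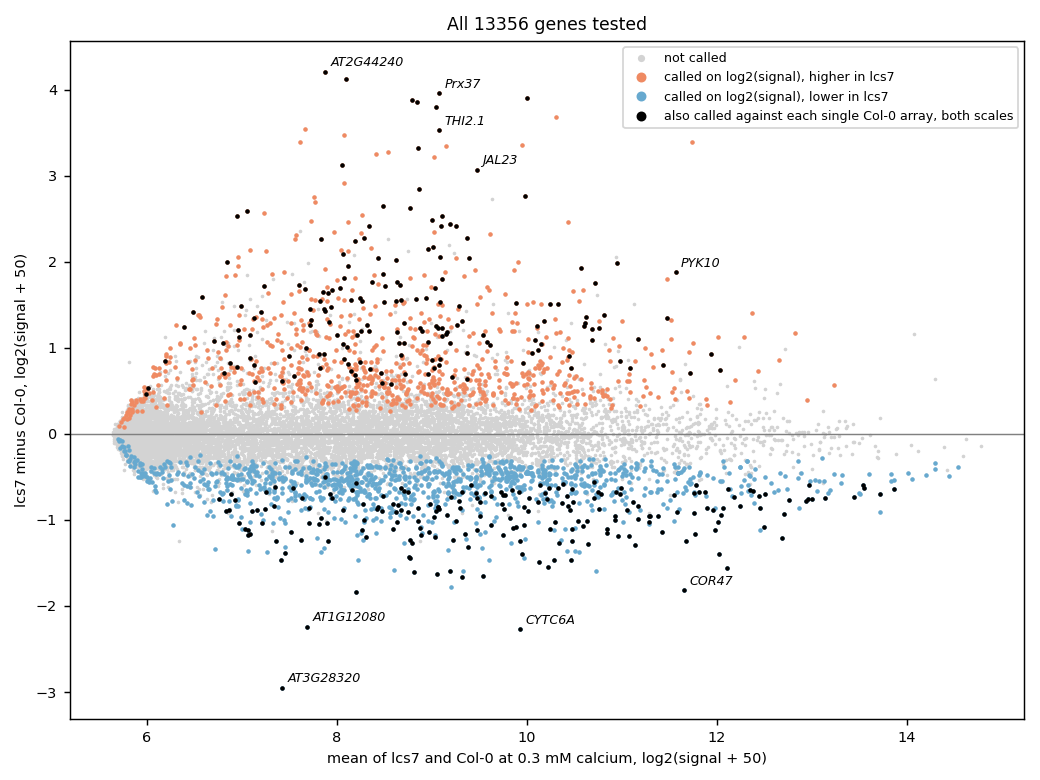
Difference of lcs7 minus Col-0 at 0.3 mM calcium (vertical axis, log2(signal + 50)) against the mean of both lines (horizontal axis, same scale) for 13356 genes, 1 point a gene. Colours mark the genes called on log2(signal), and black points those called on both scales and also against each single Col-0 array, where the largest rises reach beyond 4 and the largest falls stay near -3.

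The Col-0 arrays at 0.3 mM calcium disagreed with each other more than the lcs7 arrays did. The median SD of a gene over 3 arrays on log2(signal + 50) was 0.115 in lcs7, against 0.156 in Col-0. Replicate 1 of Col-0 was most often the array closest to lcs7. It was the nearest Col-0 array in 48.1% of the genes called higher and in 49.4% of those called lower, while replicate 2 was nearest in 25.5 and 26.9% and replicate 3 in 26.4 and 23.7%. The median rise of the genes called higher on log2(signal + 50) was 0.70 against replicate 1 and 0.78 against each of replicates 2 and 3. Among the genes called lower the medians were -0.53, -0.59 and -0.60. No called gene changed sign against any of these arrays, but the choice of genes that do not overlap fixes most of that.

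A single Col-0 array was also set against lcs7, on the assumption that it varies as arrays of the other groups do. This called 747 genes against replicate 1 (5.59%), 986 against replicate 2 (7.38%) and 1121 against replicate 3 (8.39%). With the offset the counts were 1378 (10.3%), 1774 (13.3%) and 1946 (14.6%). Of the 934 genes called higher 174 were called in each of these fits on log2(signal), 188 against 2 of the arrays, 190 against 1 and 382 against none. For the 1309 called lower the numbers were 208, 193, 289 and 619. The strictest set kept genes called on both scales, with arrays that did not overlap, and called on both scales against each single Col-0 array. It held 377 genes (2.82%), 173 higher (1.3%) and 204 lower (1.53%), and below a gene is said to hold against each Col-0 array when it belongs to this set.

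**Figure D2:**
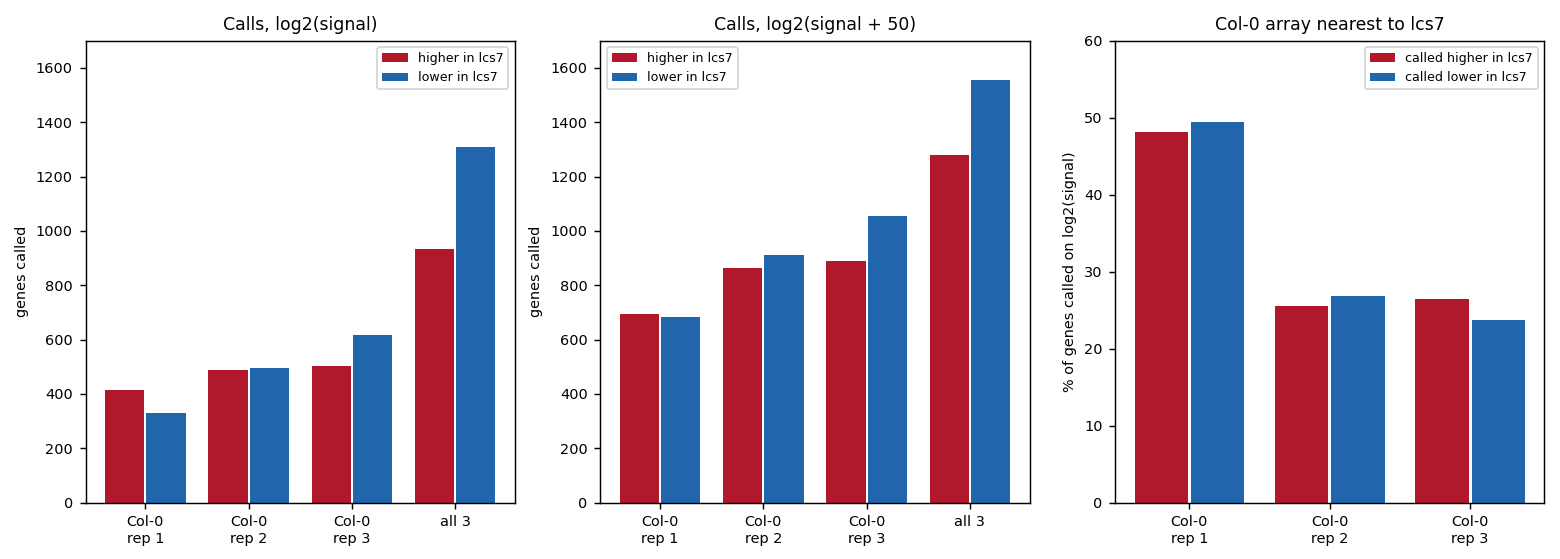
Number of genes called higher and lower in lcs7 when Col-0 at 0.3 mM calcium was represented by replicate 1, 2 or 3 alone or by all 3 arrays, on log2(signal) in the left panel and on log2(signal + 50) in the middle panel. The right panel gives the percentage of the called genes for which each Col-0 array was the one nearest to lcs7, which was highest for replicate 1 at 48.1 and 49.4%.

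The largest rises that held against each Col-0 array were at secreted defence and wall proteins and at several genes named here only by locus. AT2G44240 had signals of 1318, 659 and 1039 in lcs7, against 7, 6.9 and 1.7 in Col-0, and rose by 7.80 ± 0.62 (adjusted p = 0.000251), or by 4.21 ± 0.18 with the offset. AT5G24240 had 1171, 1079.9 and 1084 in lcs7, against 6.3, 21.6 and 23.8 in Col-0 (6.23 ± 0.67, adjusted p = 0.000623). Both genes were near background in Col-0 and bright in every lcs7 array. Prx37, a class III peroxidase, a family of secreted enzymes that act on wall polymers, had 1716, 2210.4 and 2474 in lcs7, against 132, 109 and 42.8 in Col-0 (4.63 ± 0.44, adjusted p = 0.000381). OSM34, an osmotin-like pathogenesis protein, had 1406, 1702 and 1927 in lcs7, against 76.4, 80.9 and 44.9 in Col-0 (4.67 ± 0.37, adjusted p = 0.000251). In each of these genes the lowest lcs7 array lay far above the highest Col-0 array, and Col-0 replicate 3 was the lowest Col-0 array in 3 of the 4.

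THI2.1, a thionin with antimicrobial activity and a classical marker of jasmonate signalling, had signals of 1507, 2503 and 1558 in lcs7, against 177, 110.5 and 64.6 in Col-0 (4.06 ± 0.37, adjusted p = 0.000335). AT4G16260 had 4063, 4331 and 3677 in lcs7, against 286, 418 and 77.8 in Col-0 (4.25 ± 0.64, adjusted p = 0.00246). AT3G28540 had 1709, 1492 and 1924 in lcs7, against 68.9, 80.8 and 63.3 in Col-0 (4.59 ± 0.33, adjusted p = 0.000191). Arrays of lcs7 and Col-0 were apart in each of these. AT1G54020 (3.9 ± 0.51) and AT1G26390 (4.23 ± 0.42) also rose and held against each Col-0 array. AT1G76960 had 2932, 2618 and 2248 in lcs7, against 1.8, 288 and 336 in Col-0 (5.53 ± 1.65, adjusted p = 0.0486). Here the spread lay within Col-0, where replicate 1 was at background, and the adjusted p was 0.116, 0.113 and 0.109 without lcs7 replicate 1, 2 or 3, and between 0.066 and 0.0694 without any 1 of the arrays at 2 mM calcium. With the offset the gene passed in each of those fits (3.80 ± 0.56, adjusted p = 0.000586 with all arrays). At 2 mM calcium it had 552, 605 and 751 in lcs7, against 1.9, 2.3 and 4.7 in Col-0 (7.85 ± 1.65, adjusted p = 0.0409). Col-0 replicate 1 at 0.3 mM was thus near the Col-0 arrays at 2 mM, and replicates 2 and 3 lay between those and lcs7.

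The largest falls that held against each Col-0 array were smaller. AT3G28320 had signals of 4.3, 23 and 13.2 in lcs7, against 341, 646 and 373 in Col-0 (-5.31 ± 0.72, adjusted p = 0.00163), and was near background in lcs7. CYTC6A, cytochrome c6A of the thylakoid lumen, had 371, 428 and 383 in lcs7, against 2221, 2011 and 2042 in Col-0 (-2.41 ± 0.11, adjusted p = 1.86e-05). COR47, a dehydrin of cold and drought responses, had 2007, 1509 and 1529 in lcs7, against 5486, 6963 and 5636 in Col-0 (-1.85 ± 0.19, adjusted p = 0.00056). All 3 separated the lines, and the arrays of each line lay close together in CYTC6A and COR47 but not in AT3G28320, where lcs7 was dim and Col-0 replicate 2 was the highest. The other large falls were AT1G12080 (-3.20 ± 0.32), AT1G69523 (-2.27 ± 0.20), AT3G19850 (-1.82 ± 0.18), AT1G02300 (-1.81 ± 0.10), AT2G47880 (-1.81 ± 0.11), AT1G19450 (-1.78 ± 0.19) and AGL87, a MADS-box gene (-1.75 ± 0.12), with adjusted p from 5.33e-05 to 0.000668.

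**Figure D3:**
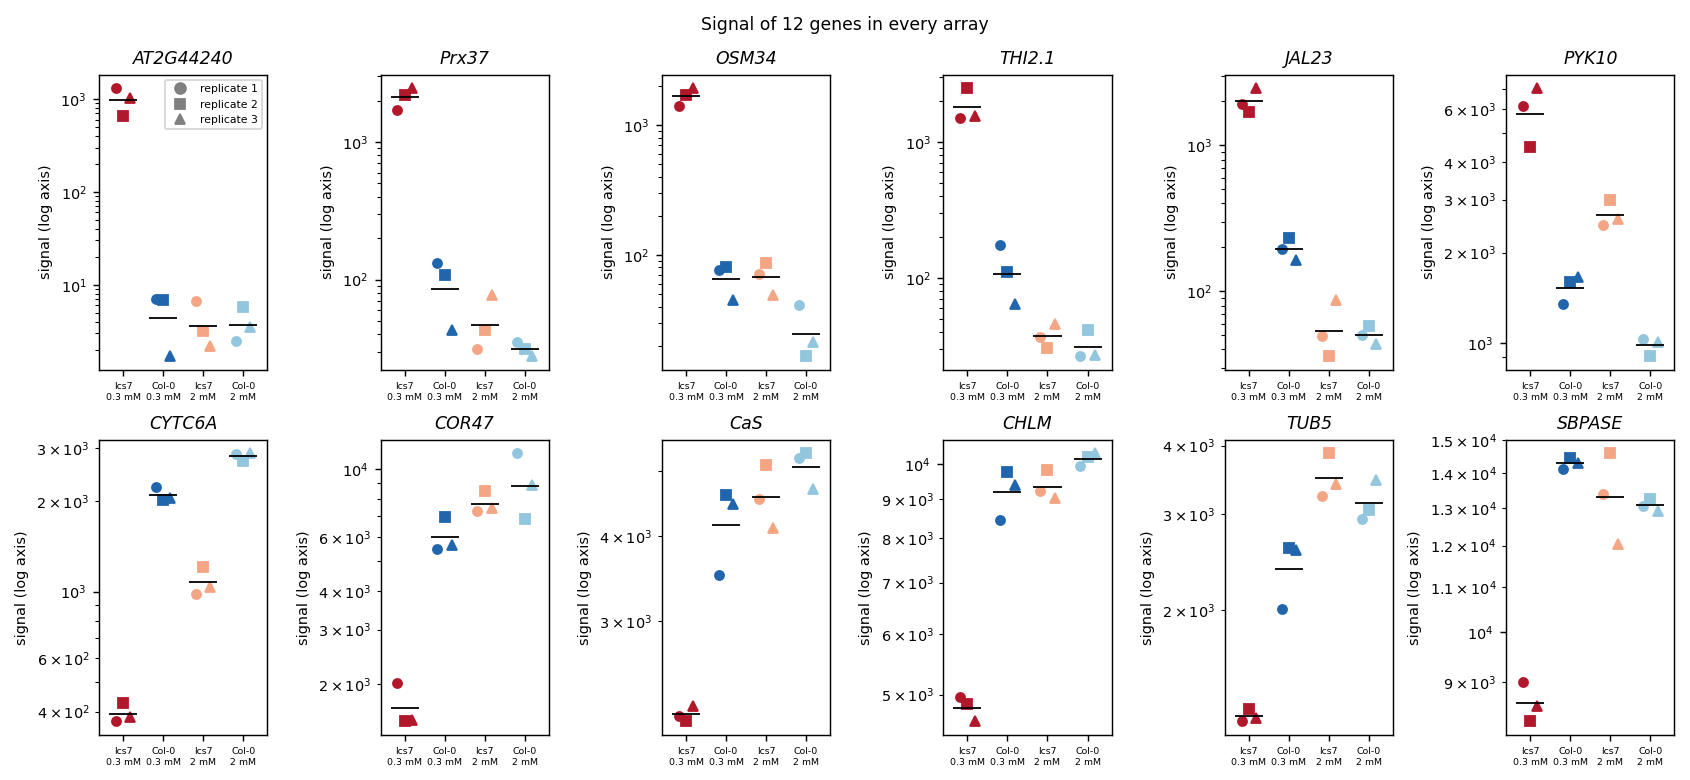
Signal (log axis) of 12 genes in every array, with lcs7 and Col-0 at 0.3 mM calcium left of lcs7 and Col-0 at 2 mM calcium in each panel. Points are arrays, their shape gives the replicate number, and bars are geometric means. In all 12 panels the 3 lcs7 arrays at 0.3 mM lie apart from the 3 Col-0 arrays at 0.3 mM, above them in the upper row and below them in the lower row.

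Calcium sensors and channels changed in both directions. Of 11 measured genes in the list of calcium sensors and kinases 4 rose and 2 fell, and 5 of the 6 held against each Col-0 array. The median difference of the list was 0.54 on log2(signal + 50), against -0.03 over all genes. The 11 include ATCRT1 (AT5G56340), which was matched by the name CRT1 and was not called (0.06, adjusted p = 0.895). Whether this locus is the calcium-binding protein of that name was not checked. The count of 11 and the median may therefore include a gene that is no calcium sensor. The calmodulin-like gene AT1G76640 (CML39) had signals of 325, 135 and 339 in lcs7, against 2.5, 1.7 and 1.8 in Col-0 (6.96 ± 0.37, adjusted p = 4.18e-05), or 2.53 ± 0.22 with the offset. CML41, a calmodulin-like protein found at plasmodesmata, had 439.7, 455 and 427 in lcs7, against 169.7, 114 and 80.1 in Col-0 (1.93 ± 0.24, adjusted p = 0.00116). CML43 had 156, 144 and 161 in lcs7, against 39.6, 57.3 and 30.2 in Col-0 (1.91 ± 0.23, adjusted p = 0.000905). The groups were separate in all 3. The calreticulin CRT1b, a calcium-binding chaperone of the endoplasmic reticulum, rose by 0.50 (adjusted p = 0.0201) but passed in 8 of the 12 fits without 1 array (up to 0.0745, without lcs7 replicate 2), and the calmodulin-like gene CML30 fell by 0.98 on the log2 scale. CaS, the calcium-sensing protein of the thylakoid, had 2179.6, 2137 and 2255 in lcs7, against 3512, 4610.0 and 4464 in Col-0 (-0.93 ± 0.13, adjusted p = 0.00171). CML37 and CML38 were higher by 2.5 and 1.65 but passed only with the offset (adjusted p = 0.102 and 0.0569 without it).

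All 7 measured genes of the calcium and cation transport list are glutamate receptor-like channels, which conduct cations including calcium. Of these 2 rose and 1 fell (28.6 and 14.3%, against 6.99 and 9.8% of all genes), and the median was 0.42 on log2(signal + 50). GLR2.8 had signals of 388, 274 and 292 in lcs7, against 70.6, 57.2 and 63.9 in Col-0 (2.3 ± 0.22, adjusted p = 0.000381), and held against each Col-0 array. ATGLR1.2 rose by 1.25 ± 0.24 (adjusted p = 0.00768) and GLR3.6, a channel of wound signalling, fell by 0.80 on the log2 scale (SE of 0.17 and adjusted p = 0.0136), both without overlap between the lines but not called on log2(signal) against any Col-0 array alone. GLR2.9 was higher by 2.29 without passing (adjusted p = 0.127). Of the proton pumps 4 subunits of vacuolar-type ATPases were measured, and limma called 0 of 4 on either scale. VHA-A3 had signals of 2279, 1856 and 2103.5 in lcs7, against 2297, 2264 and 2127 in Col-0 (-0.10 ± 0.11, adjusted p = 0.602). VHA-A1 had 381, 457 and 424 in lcs7, against 342, 322 and 345 in Col-0 (0.32 ± 0.13, adjusted p = 0.144), and VHA-A2 had 676, 739 and 670.1 in lcs7, against 716, 869.6 and 696 in Col-0 (-0.12 ± 0.11, adjusted p = 0.493). VHA-A1 arrays did not overlap between the lines and VHA-A2 arrays did.

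The ER body genes rose together. ER bodies are spindle-shaped compartments that hold the beta-glucosidase PYK10, which meets jacalin lectins and its substrates when cells are broken, and NAI1 is the transcription factor and NAI2 the structural protein behind them. All 7 measured members rose (6.99% of all genes did), with a median of 1.52 on log2(signal + 50), and 5 held against each Col-0 array. JAL23 had signals of 1932, 1703 and 2473 in lcs7, against 194, 233 and 164 in Col-0 (3.37 ± 0.30, adjusted p = 0.000314). PYK10 had 6131, 4473 and 7033 in lcs7, against 1350.5, 1596 and 1657 in Col-0 (1.92 ± 0.17, adjusted p = 0.000314). NAI2 had 1591, 1273 and 1866 in lcs7, against 414, 564 and 566 in Col-0 (1.61 ± 0.17, adjusted p = 0.000668). None of these overlapped, and against single Col-0 arrays the list median was 1.89, 1.39 and 1.4. JAL33 rose by 2.22 ± 0.22, and JAL22 and JAL34 rose by 1.29 and 1.57. NAI1 was called (1.17, adjusted p = 0.0479) but passed in 2 of the 12 fits without 1 array (up to 0.156, without lcs7 replicate 3). PYK10 is also a root marker, and the other root markers measured, EXPA7 and EXPA18, did not rise. ATCRT1, whose match by name was not checked, is also in the list of protein folding in the endoplasmic reticulum. Among the 9 genes of that list 3 rose (33.3%, against 6.99% of all genes). Of these ATERDJ3B, a co-chaperone, held against each Col-0 array (0.78 ± 0.11, adjusted p = 0.00175). DER1 (0.41 ± 0.09) and PDIL5-1 (0.36 ± 0.09) were small rises. DER1 missed the threshold without lcs7 replicate 2 or 3 or Col-0 replicate 3 (adjusted p = 0.066, 0.0711 and 0.0504), and PDIL5-1 without any 1 of the lcs7 arrays or Col-0 replicate 1 or 2 (up to 0.097, without lcs7 replicate 2).

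Chitinases, osmotin, a thionin and some defensins rose, while other defensins fell or did not pass. Among 3 measured chitinases and osmotins all 3 rose (6.99% of all genes did), with a median of 3.36 on log2(signal + 50). The chitinase gene CHI had signals of 2758, 3498 and 3283 in lcs7, against 655, 147 and 172 in Col-0 (3.63 ± 1.04, adjusted p = 0.041). It missed the threshold without any 1 of the lcs7 arrays, Col-0 replicate 2 or 3, or replicate 1 of either line at 2 mM calcium (up to 0.119, without Col-0 replicate 2 or 3), and passed with the offset in each of these fits. ChiC, another chitinase, rose by 1.77 ± 0.34 (adjusted p = 0.00734). On log2(signal) CHI was called against none of the Col-0 arrays alone (adjusted p = 0.453, 0.127 and 0.136), and ChiC against replicates 2 and 3 but not against replicate 1 (0.129). Replicate 1 was the highest Col-0 array for both.

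Of 10 jasmonate and wounding genes 4 rose and 1 fell (40 and 10%, against 6.99 and 9.8% of all genes). The median was 0.90 on log2(signal + 50). LCR67, a defensin-like gene, had signals of 559, 735 and 724 in lcs7, against 4, 31.7 and 2.9 in Col-0 (6.54 ± 0.99, adjusted p = 0.00252, or 3.54 ± 0.18 with the offset). PDF1.4, a plant defensin, had 549.8, 413 and 544 in lcs7, against 87.4, 104 and 84.3 in Col-0 (2.45 ± 0.21, adjusted p = 0.000314). JRG21, a jasmonate-regulated oxygenase, had 1094, 819 and 1570.3 in lcs7, against 95, 97.4 and 34.2 in Col-0 (4.04 ± 0.91, adjusted p = 0.0155). The lines were apart in all 3, PDF1.4 and THI2.1 held against each Col-0 array, and JRG21 missed the threshold on log2(signal) without lcs7 replicate 3 (adjusted p = 0.0561) or Col-0 replicate 3 (0.0571). Of the other defensin genes LCR68 fell by 0.69 on the log2 scale, LCR69 did not pass (-0.16), and PDF1.2b did not pass (0.65). PDF1.2, a well-known jasmonate marker, had 26028, 26253 and 24728 in lcs7, against 13230, 12840 and 8840 in Col-0, without overlap but without passing (1.16 ± 0.94, adjusted p = 0.467). Its spread was widest in lcs7 at 2 mM calcium, with 555, 452 and 8454, and without replicate 3 of that group it was called (1.16 ± 0.32, adjusted p = 0.0449).

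Salicylic acid and immune signalling genes were also higher. Of 4 in the list 3 rose (75%, against 6.99% of all genes), with a median of 1.82 on log2(signal + 50). GRX480, a glutaredoxin induced by salicylic acid, had signals of 1649.7, 1206 and 1166 in lcs7, against 329.7, 221 and 109 in Col-0 (2.73 ± 0.41, adjusted p = 0.00254). SAG101, a partner of EDS1 in immune signalling, had 724, 647 and 655 in lcs7, against 286, 282 and 231 in Col-0 (1.35 ± 0.12, adjusted p = 0.000372). UGT76B1, which glucosylates salicylic acid and isoleucic acid, had 421, 419.8 and 598 in lcs7, against 119, 15.1 and 27 in Col-0 (3.69 ± 0.77, adjusted p = 0.0111). GRX480 and SAG101 held against each Col-0 array, while UGT76B1 was not called on log2(signal) against Col-0 replicate 1 (adjusted p = 0.208), its highest Col-0 array. WRKY53, the remaining member, was higher by 1.26 (adjusted p = 0.0537).

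Of 7 WRKY transcription factors 2 rose (28.6%, against 6.99% of all genes), WRKY6 (2.45 ± 0.28, adjusted p = 0.000769) and WRKY47 (0.99 ± 0.18, adjusted p = 0.00662), and the median was -0.01. WRKY6 had signals of 769.8, 587 and 619 in lcs7, against 172, 108 and 92.2 in Col-0, and held against each Col-0 array. Of 9 U-box ubiquitin ligases 2 rose (22.2%), and both are among the ligases that dampen immune responses. PUB24 rose by 1.16 ± 0.19 (adjusted p = 0.00354), and PUB23 had 1781, 1095 and 888 in lcs7, against 137, 452 and 252 in Col-0 (2.26 ± 0.50, adjusted p = 0.014). PUB23 varied within both lines and missed the threshold without lcs7 replicate 1 (adjusted p = 0.0535). Of 4 immune receptors and receptor-like kinases 1 was called (25%), BIK1, a cytoplasmic kinase below several receptors (0.74 ± 0.21, adjusted p = 0.0408). BIK1 passed in 5 of the 12 fits without 1 array (up to 0.131, without Col-0 replicate 3).

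Of the lignin and flavonoid lists 4 genes each rose (66.7 and 57.1% of their members, against 6.99% of all genes) and none fell on log2(signal). Among 6 genes of the lignin and phenylpropanoid list 4 rose, the peroxidases Prx37 and PRX52 and the monolignol enzymes CCOAMT and CCR2, with a median of 2.2 on log2(signal + 50). CCOAMT, a caffeoyl-CoA methyltransferase, had signals of 585, 674 and 663 in lcs7, against 125, 73.7 and 85.4 in Col-0 (2.79 ± 0.32, adjusted p = 0.00084). PRX52, a peroxidase of lignin formation, had 311, 450.1 and 382 in lcs7, against 59.2, 30.8 and 23 in Col-0 (3.44 ± 0.96, adjusted p = 0.0369), and CCR2, cinnamoyl-CoA reductase, had 260.4, 188 and 466 in lcs7, against 43.7, 40.5 and 4.3 in Col-0 (3.85 ± 0.90, adjusted p = 0.0179). The arrays of the lines were separate in all of them. PRX52 missed the threshold without any 1 of the lcs7 arrays, Col-0 replicate 2 or 3, or Col-0 replicate 3 at 2 mM calcium (up to 0.111, without Col-0 replicate 3), and CCR2 without lcs7 replicate 1 (0.051) or 3 (0.0674), but both passed with the offset in those fits. HCT, an early enzyme of the pathway, was lower by 0.43 on the log2 scale without passing (adjusted p = 0.0594), and passed with the offset (0.0288).

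Of 7 anthocyanin and flavonoid genes 4 rose, with a median of 0.71 on log2(signal + 50). DFR, dihydroflavonol reductase at the entry to anthocyanins, had signals of 916, 694 and 1117 in lcs7, against 275, 200.5 and 253 in Col-0 (1.89 ± 0.22, adjusted p = 0.000775). AT5MAT, the anthocyanin malonyltransferase, had 95.3, 91.1 and 95.9 in lcs7, against 39.2, 38.1 and 36.3 in Col-0 (1.31 ± 0.14, adjusted p = 0.000526). Both held against each Col-0 array. The glycosyltransferases UF3GT (1.68 ± 0.31) and UGT78D2 (0.93 ± 0.16) rose too without belonging to that set, and BAN, which leads to proanthocyanidins of the seed coat, did not pass (-1.28, adjusted p = 0.342).

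Among 51 UDP-glycosyltransferases, which attach sugars to hormones and secondary metabolites, 12 rose and 1 fell (over all genes 6.99% rose and 9.8% fell), with a median of 0.26 on log2(signal + 50). UGT73B4 had signals of 176, 154 and 214 in lcs7, against 6.4, 6.7 and 9.4 in Col-0 (4.61 ± 0.46, adjusted p = 0.000416). UGT85A2 had 1318, 1009 and 1226 in lcs7, against 179, 404 and 337 in Col-0 (2.02 ± 0.34, adjusted p = 0.00404). UGT71B6, which glucosylates abscisic acid, rose by 1.91 ± 0.42 (adjusted p = 0.0144), with values just above 0.05 without lcs7 replicate 1 (0.0546) or 2 (0.0503). UGT73B4 held against each Col-0 array, and UGT85A2 and UGT71B6 did not. Of 22 beta-glucosidases 5 rose and 2 fell (22.7 and 9.09%). BGLU46, which releases monolignols from their glucosides, had 390.1, 402 and 605 in lcs7, against 66.4, 137 and 90.6 in Col-0 (2.28 ± 0.31, adjusted p = 0.00158), and BGLU45 of the same function rose by 1.69. BGLU31 rose by 3.93 ± 0.84 (adjusted p = 0.0122), with Col-0 near background, while BGLU33 fell, with 399.6, 595 and 728 in lcs7, against 1464, 1744 and 1604 in Col-0 (-1.52 ± 0.25, adjusted p = 0.00348). Of 24 cytochromes P450, most of the CYP71B family, 6 rose (25%) and none fell. CYP71B6 had 2766, 2825 and 2973 in lcs7, against 1261, 1047 and 912 in Col-0 (1.42 ± 0.14, adjusted p = 0.000399) and held against each Col-0 array, unlike CYP71B36 (1.74 ± 0.23), CYP71B26 (1.05 ± 0.16) and CYP71B22 (0.91 ± 0.21). CYP71B22 had an adjusted p of 0.0633 without lcs7 replicate 1 and of 0.0502 without Col-0 replicate 3.

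Carbon fixation genes and all but 2 of the photosystem genes fell, by less than 2-fold. All 5 measured genes of the Calvin cycle and photorespiration fell (9.8% of all genes did), with a median of -0.54 on log2(signal + 50), and against single Col-0 arrays the median was -0.46, -0.62 and -0.54. SBPASE, sedoheptulose-bisphosphatase, had signals of 8989, 8275 and 8558 in lcs7, against 14097, 14446 and 14306 in Col-0 (-0.73 ± 0.09, adjusted p = 0.00113). HPR, hydroxypyruvate reductase of photorespiration, had 9599, 8791 and 8948 in lcs7, against 13316, 16188 and 15087 in Col-0 (-0.70 ± 0.11, adjusted p = 0.00257). RCA had 17548, 17342 and 17245 in lcs7, against 23831, 23898 and 21555 in Col-0 (-0.41 ± 0.09, adjusted p = 0.0121). The lines did not overlap in any of these bright genes. SBPASE held against each Col-0 array, and PRK, phosphoribulokinase (-0.54 ± 0.11), also fell. TPI, triosephosphate isomerase, was called lower by 0.28 and passed in 3 of the 12 fits without 1 array (up to 0.109, without lcs7 replicate 3).

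Of 9 genes of light harvesting, photosystems and the chloroplast ATP synthase 7 fell and 1 rose (77.8 and 11.1%). Over all genes 9.8% fell and 6.99% rose. The median of the list was -0.53 on log2(signal + 50). PSBY of photosystem II had signals of 10727, 10377 and 10442 in lcs7, against 16235, 18398 and 16738 in Col-0 (-0.70 ± 0.09, adjusted p = 0.00157), and held against each Col-0 array. PSAN of photosystem I fell by 0.69 on the log2 scale (SE 0.13) and ATPC1, the gamma subunit of the ATP synthase, by 0.56 (SE 0.09). The exception was LHCB4.3, an antenna isoform of photosystem II, which had 3099.9, 3491 and 3349.6 in lcs7, against 2401, 1639 and 1769 in Col-0 (0.79 ± 0.20, adjusted p = 0.0223), while its isoform LHCB4.1 fell by 0.48. LHCB4.3 missed the threshold without any 1 of the lcs7 arrays or Col-0 replicate 2 or 3 (0.0509 to 0.0759), and it passed with the offset.

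Of 10 genes of chlorophyll and tetrapyrrole metabolism 6 fell (60%, against 9.8% of all genes), with a median of -0.42 on log2(signal + 50). CHLM, the methyltransferase of magnesium protoporphyrin, had signals of 4957, 4855 and 4613 in lcs7, against 8458, 9758 and 9392 in Col-0 (-0.93 ± 0.09, adjusted p = 0.000372). HEME1, a uroporphyrinogen decarboxylase, had 980.2, 1096 and 984 in lcs7, against 1622, 1681 and 1816 in Col-0 (-0.74 ± 0.09, adjusted p = 0.000975). Both held against each Col-0 array. PORB, protochlorophyllide oxidoreductase, fell by 0.71 on the log2 scale (SE of 0.18 and adjusted p = 0.0272), but missed the threshold without lcs7 replicate 1 or 3 or Col-0 replicate 2 or 3 (0.0874 to 0.0946). NOL, which acts in chlorophyll b breakdown rather than synthesis, fell as well (-0.65 ± 0.11, adjusted p = 0.00409).

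Of 22 nuclear genes for the assembly of thylakoid complexes, the chloroplast NDH complex and plastid RNA editing 12 fell (54.5%, against 9.8% of all genes) and none rose, with a median of -0.50 on log2(signal + 50). NdhL, an NDH subunit, had signals of 2027, 1658 and 1747 in lcs7, against 3611, 4513 and 4062 in Col-0 (-1.17 ± 0.13, adjusted p = 0.000775). LPA2, an assembly factor of photosystem II, had 1129.5, 1089 and 1010.4 in lcs7, against 2026, 2463 and 2161 in Col-0 (-1.04 ± 0.11, adjusted p = 0.000677). NdhN fell by 0.97 on the log2 scale (SE 0.13). These 3 and HCF101 held against each Col-0 array, CRR42 (-0.79 ± 0.15) did not, and Col-0 replicate 1 was the lowest Col-0 array in each of NdhL, LPA2, NdhN and CRR42.

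Of 69 plastid-encoded genes 4 were called lower (5.8%, against 9.8% of all genes) and none higher, and with the offset 10 were called lower (14.5%, against 11.7%). Their median was -0.22 on log2(signal + 50). That median was -0.34 and -0.37 against Col-0 replicates 1 and 2 and 0.02 against replicate 3, so its sign depended on the Col-0 array. The ribosomal gene rpl33 (-0.66 ± 0.16), psaJ of photosystem I (-0.65 ± 0.15), atpE of the ATP synthase (-0.40 ± 0.10) and ndhI (-0.34 ± 0.10) were the 4. Each missed the threshold without at least 1 of the arrays: rpl33 passed in 7 of the 12 fits without 1 array (up to 0.0833, without lcs7 replicate 2), psaJ in 11 (missing it at 0.0608 without lcs7 replicate 2), atpE in 8 (up to 0.0787, without lcs7 replicate 1) and ndhI in 2 (up to 0.135, without lcs7 replicate 2). None of the 69 was called on log2(signal) against a single Col-0 array.

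Starch and sugar genes mostly fell or did not pass. Of 14 in the list 5 fell (35.7%, against 9.8% of all genes), with a median of -0.28 on log2(signal + 50). SBE2.2, a starch branching enzyme, had signals of 727, 762 and 767 in lcs7, against 1273, 1362 and 1251 in Col-0 (-0.78 ± 0.10, adjusted p = 0.00105), and held against each Col-0 array. DPE1, the plastid disproportionating enzyme of starch breakdown, fell by 0.67 on the log2 scale (SE 0.10), the sugar transporter SWEET4 by 1.67 (SE 0.30) and the tonoplast sugar importers TMT1 by 0.62 (SE 0.14) and TMT2 by 0.48. TMT1 had an adjusted p of 0.0576 without lcs7 replicate 1 and of 0.0548 without replicate 2, and TMT2 passed in 7 of the 12 fits without 1 array (up to 0.0931, without lcs7 replicate 1). In the other direction APL3, a large subunit of ADP-glucose pyrophosphorylase, the enzyme that releases pyrophosphate in starch synthesis, rose by 0.99 ± 0.21 (adjusted p = 0.0109). PPDK, pyruvate phosphate dikinase, which makes pyrophosphate in its forward reaction, had 1343, 1251 and 1515 in lcs7, against 661, 573 and 477 in Col-0 (1.27 ± 0.21, adjusted p = 0.00393). These were the 2 called of 4 in the list of glycolysis, gluconeogenesis and pyrophosphate (50%, against 6.99% of all genes called higher). Neither held against each Col-0 array.

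Most tubulin genes fell, while the shares of wall genes called on log2(signal) were near or below those of all genes. Of 10 genes for tubulins, actins and cellulose 6 fell (60%, against 9.8% of all genes), with a median of -0.54 on log2(signal + 50). Of the 6, 5 were tubulins and the other was COB, which guides oriented cellulose deposition. TUB5 had signals of 1250.4, 1319.5 and 1267 in lcs7, against 2007, 2600.0 and 2581 in Col-0 (-0.90 ± 0.13, adjusted p = 0.00195). TUA6 had 4135, 4356 and 4139 in lcs7, against 6324, 6256 and 7505 in Col-0 (-0.66 ± 0.10, adjusted p = 0.00287). The lcs7 arrays of both genes were tightly grouped below Col-0, and TUA6 held against each Col-0 array. TUB1 (-1.06 ± 0.16) and TUB6 (-0.79 ± 0.11) fell too.

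Of 44 genes of pectin, expansins and other wall enzymes 5 fell and 1 rose (11.4 and 2.27%, against 9.8 and 6.99% of all genes), and with the offset 10 were called lower (22.7%, against 11.7%). The median was -0.10 on log2(signal + 50), and none of the 44 held against each Col-0 array. The endoglucanases GH9B8 (-1.48 ± 0.22, adjusted p = 0.00229) and GH9C2 (-0.91 ± 0.20, adjusted p = 0.0131) and the expansin-like gene EXLB1 (-1.17 ± 0.24, adjusted p = 0.00996) fell. The pectin methylesterase gene PMEPCRF rose, with signals of 2336, 2760.0 and 2617 in lcs7, against 1754, 969 and 1247 in Col-0 (1.00 ± 0.21, adjusted p = 0.0105), and Col-0 replicate 1 stood closest to lcs7. WSD1, the wax ester synthase, was the 1 gene called of 6 in the lipid and wax list (16.7%). It had 1.7, 4.8 and 7.2 in lcs7, against 100.3, 49.7 and 48.6 in Col-0 (-4.00 ± 0.67, adjusted p = 0.00409), or -1.06 ± 0.16 with the offset. Of 8 cell cycle and histone genes 1 fell (12.5%, near the 9.8% of all genes). It was SIM, an inhibitor of cyclin-dependent kinases (-0.68 ± 0.16, adjusted p = 0.0178), with 0.0657 and 0.0655 without lcs7 replicate 2 or 3.

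Other hormone lists had from 1 to 13 measured genes, and EIN3, the one measured ethylene gene, was not called (-0.03). Of 13 auxin genes 1 rose and 2 fell (7.69 and 15.4%, against 6.99 and 9.8% of all genes). GH3.3, which conjugates auxin to amino acids, held against each Col-0 array, with signals of 778, 617 and 841 in lcs7, against 222, 269 and 165 in Col-0 (1.79 ± 0.22, adjusted p = 0.00116). The auxin repressors IAA20 (-2.32 ± 0.63) and IAA30 (-1.17 ± 0.29) were called lower at signals of 5.2 to 7.5 and 23.8 to 50.1 in lcs7, against 14 to 59.5 and 62.6 to 82.8 in Col-0. Both missed the threshold without some single arrays: without Col-0 replicate 3 the adjusted p was 0.11 for IAA20 and 0.0747 for IAA30, without lcs7 replicate 3 it was 0.099 and 0.0797, without lcs7 replicate 2 0.0962 and 0.077, without Col-0 replicate 2 0.0842 and 0.0602, and without lcs7 replicate 1 0.065 for IAA20. With the offset IAA20 was not called (-0.56 ± 0.20, adjusted p = 0.0718). RR16, a response regulator induced by cytokinin, was the 1 called of 6 gibberellin, cytokinin and brassinosteroid genes (16.7%). It fell (-1.23 ± 0.30, adjusted p = 0.0227), and missed the threshold without any 1 of the lcs7 arrays or Col-0 replicate 1 or 3 (0.051 to 0.0764). Of 4 measured genes of abscisic acid, drought and cold 2 fell (50%, against 9.8% of all genes), COR47 and COR15B, a chloroplast protein of cold acclimation. COR15B had signals of 1439, 2010.0 and 1668 in lcs7, against 3242, 3268 and 4229.5 in Col-0 (-1.07 ± 0.23, adjusted p = 0.0128). The list mates COR15A (0.11) and the dehydrin LTI30 (0.78, adjusted p = 0.0534) were not called, and LTI30 was called higher with the offset (adjusted p = 0.0158).

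Redox, mineral, mitochondrial and recycling lists gave scattered changes. Of all genes 6.99% were called higher and 9.8% lower, against 66.7 and 0% of the oxidative stress list. In the iron, zinc and sulfur list the shares were 16.7 and 16.7%. Of 3 oxidative stress genes ATMDAR2, a monodehydroascorbate reductase, had signals of 2960.2, 2623 and 2758 in lcs7, against 1242, 1324 and 1207 in Col-0 (1.14 ± 0.19, adjusted p = 0.0044), and NDB2, an alternative NADH dehydrogenase of mitochondria, was called higher (1.19 ± 0.32, adjusted p = 0.0323). NDB2 missed the threshold without lcs7 replicate 2 or 3 or Col-0 replicate 2 or 3 (0.0934 to 0.103). Of 9 glutathione transferases 1 fell (11.1%, near the 9.8% of all genes) and none rose. It was GSTU18 (-0.70 ± 0.10, adjusted p = 0.00185). Of 6 iron, zinc and sulfur genes APS4, an ATP sulfurylase, which also releases pyrophosphate, rose, with 2149, 1962 and 1918 in lcs7, against 462, 760.4 and 859 in Col-0 (1.58 ± 0.20, adjusted p = 0.00125), and held against each Col-0 array. The metallothionein MT1C was called lower (-0.63 ± 0.18, adjusted p = 0.045) but passed in 1 of the 12 fits without 1 array (up to 0.144, without lcs7 replicate 3).

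Of 12 genes of organic acids and mitochondria 3 rose and 2 fell (25 and 16.7%, against 6.99 and 9.8% of all genes), with a median of 0.23 on log2(signal + 50). Malate dehydrogenase MDH (0.46 ± 0.09), succinate dehydrogenase subunit SDH2-1 (0.52 ± 0.11) and cytochrome c CYTC-2 (0.74 ± 0.19) rose, and the ATP-citrate lyase gene ACLA-1 fell (-0.46 ± 0.09). SDH2-1 had an adjusted p of 0.051 without lcs7 replicate 2, and CYTC-2 missed the threshold without any 1 of the lcs7 arrays or Col-0 replicate 2 or 3 (0.0669 to 0.0943). Of 12 senescence and recycling genes 2 rose and 2 fell (16.7 and 16.7%). The enzymes of ureide breakdown AAH (-1.61 ± 0.21, adjusted p = 0.00149) and ALN (-1.22 ± 0.22, adjusted p = 0.00536) fell, and AAH held against each Col-0 array. The autophagy genes APG8A (0.71 ± 0.17) and ATG8D (0.48 ± 0.13) were called higher, each without overlap, but missed the threshold without any 1 of the lcs7 arrays or Col-0 replicate 2 (up to 0.0666 for APG8A and 0.0919 for ATG8D), and APG8A also without Col-0 replicate 3 (0.0656). Of 29 serine carboxypeptidase-like proteins, many of them vacuolar, 2 rose and 4 fell (6.9 and 13.8%, near the 6.99 and 9.8% of all genes). The gene scpl25 had signals of 553, 477 and 464 in lcs7, against 1163, 1122 and 1001 in Col-0 (-1.14 ± 0.10, adjusted p = 0.000314) and held against each Col-0 array, and scpl20 fell by 1.03 on the log2 scale (SE 0.16). SCPL34 (-0.73 ± 0.20) and scpl35 (0.63 ± 0.16) passed in 7 and 8 of the 12 fits without 1 array (up to 0.115 for SCPL34 without Col-0 replicate 3, and up to 0.0938 for scpl35 without lcs7 replicate 2).

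**Figure D4:**
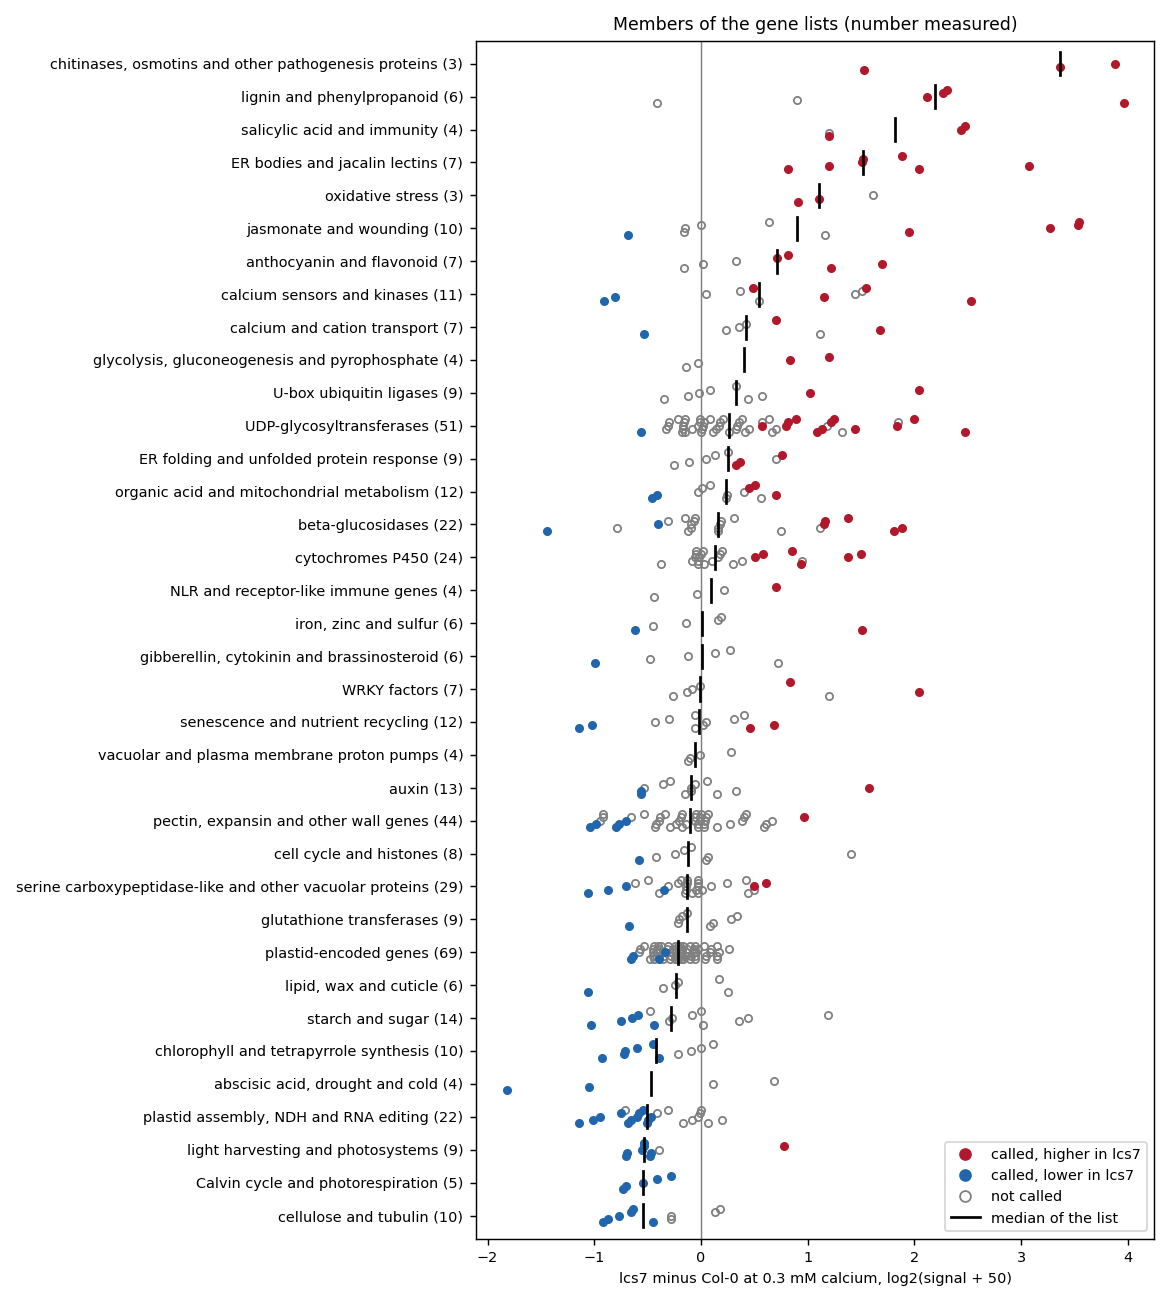
Difference of lcs7 minus Col-0 at 0.3 mM calcium on log2(signal + 50) for the members of the 36 gene lists with at least 3 measured members, ordered by their median (black bar). Filled points were called on log2(signal), red higher and blue lower in lcs7, and open points were not called. Defence, lignin and ER body lists lie at the top with medians from 1.52 to 3.36, and the lists of photosynthesis, carbon fixation and tubulin lie at the bottom with medians near -0.5.

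Some of the largest differences were called with all arrays but not against a single Col-0 array. Among genes called with all arrays but not against Col-0 replicate 1 alone, AT2G43590 had signals of 10001, 12031 and 11109 in lcs7, against 1412, 971 and 745 in Col-0 (3.45 ± 0.46, adjusted p = 0.00158, but 0.0525 against replicate 1). AT4G12490 had 3987, 4402 and 5169.9 in lcs7, against 386, 248 and 292 in Col-0 (3.89 ± 0.63, and 0.0877 against replicate 1, 0.0486 against replicate 2 and 0.0535 against replicate 3). AT3G28510 had 627, 548 and 666 in lcs7, against 35.2, 2.7 and 6.2 in Col-0 (6.19 ± 0.93, and 0.0522 against replicate 1), and AT3G18250 rose by 3.80 ± 0.61 but was called against replicate 3 alone (0.0896, 0.0524 and 0.0297 against replicates 1, 2 and 3). In each of these and in CHI, which was called against none of the 3 alone, replicate 1 was the highest Col-0 array, and the lcs7 arrays still lay far above it. With the offset all 5 were called against replicate 1, with adjusted p from 6.41e-05 to 0.0191.

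Among the falls of this kind MSRB6, a methionine sulfoxide reductase, had signals of 336, 190.2 and 302 in lcs7, against 697, 1426 and 1138 in Col-0 (-1.96 ± 0.32, adjusted p = 0.00345, but 0.0909 against replicate 1). AT5G48490 had 285, 351 and 332 in lcs7, against 582, 1462 and 1419 in Col-0 (-1.73 ± 0.37, adjusted p = 0.0126, but 0.242 against replicate 1). AT5G01015 had 327, 435 and 518 in lcs7, against 823, 1561 and 1509.7 in Col-0 (-1.57 ± 0.30, but 0.178 against replicate 1). In these 3 replicate 1 stood between lcs7 and the other Col-0 arrays. AT5G44680 (-1.65 ± 0.29, 0.0784 against replicate 1 and 0.0964 against replicate 2) and AT5G03120 (-1.84 ± 0.26, 0.0515 against replicate 1) had Col-0 arrays closer to each other, and what sets the Col-0 arrays apart was not tested.

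The genotype difference at 0.3 mM was set against the same difference at 2 mM calcium, which uses the other 6 arrays and shares none with it. At 2 mM it passed in 367 genes (2.75%), of which 219 were higher (1.64%) and 148 lower in lcs7 (1.11%). Of the 934 genes called higher at 0.3 mM, 123 were called higher and 5 lower at 2 mM, and of the 1309 called lower, 97 were called lower and 1 higher. The median difference on log2(signal + 50) of the genes called higher was 0.76 at 0.3 mM, where they were chosen, and 0.19 at 2 mM, where 78.1% of them had the same sign. For the genes called lower it was -0.57 and -0.16, with 77.9% of the same sign. Over all genes 60.8% had the same sign at both calcium levels.

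The difference between the genotype effects was tested as an interaction in the same fit. It was called in 308 genes (2.31%), 130 with a more positive (0.973%) and 178 with a more negative difference at 0.3 mM (1.33%), and in 794 with the offset (5.94%). Of the genes called higher at 0.3 mM, 122 had a call for a more positive difference there than at 2 mM, and of those called lower, 157 for a more negative one. These counts rest on the Col-0 arrays, since replicates 1, 2 and 3 alone gave 0, 89 and 136 calls on log2(signal) (1869, 2063 and 2152 genes at an unadjusted p under 0.05) and 296, 525 and 570 with the offset. They also rest on the other arrays: without lcs7 replicate 3 at 0.3 mM 57 genes were called, without lcs7 replicate 1 or 2 at 0.3 mM 132 and 91, without Col-0 replicate 2 or 3 at 0.3 mM 139 and 144, without lcs7 replicate 1, 2 or 3 at 2 mM 163, 138 and 197, and without Col-0 replicate 1, 2 or 3 at 2 mM 101, 190 and 143.

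Among the named genes AT2G44240, Prx37, THI2.1, JAL23 and AT1G76640 were high in lcs7 at 0.3 mM calcium alone. AT2G44240 had signals of 6.7, 3.2 and 2.2 in lcs7 at 2 mM, against 2.5, 5.8 and 3.5 in Col-0 at 2 mM, and its interaction was 7.83 (adjusted p = 0.0102). For Prx37 the interaction was 4.04 (adjusted p = 0.0186), for THI2.1 3.80 (0.0159), for JAL23 3.27 (0.0132) and for AT1G76640 6.69 (0.00267). The chloroplast genes CHLM (-0.81, adjusted p = 0.0186), PSBY (-0.79, 0.0223) and SBPASE (-0.76, 0.0229) had a more negative difference at 0.3 mM, and their differences at 2 mM were -0.12, 0.09 and 0.02. A further set differed between the lines at both calcium levels. AT5G24240 had 579, 453 and 559 in lcs7 at 2 mM, against 3.9, 2.3 and 14.7 in Col-0 at 2 mM, and AT3G28320 had 66.4, 16 and 11.9 in lcs7, against 653, 612 and 853 in Col-0. AT1G02300 was lower by 1.81 at 0.3 mM and by 1.90 at 2 mM on the log2 scale, and AT1G19450 by 1.78 and 2.04. For these 4 the interaction on log2(signal) had adjusted p from 0.694 to 0.892, although that does not show that the differences were equal, and with the offset AT5G24240 differed more at 0.3 mM (0.77, adjusted p = 0.0309). PYK10 and JAL33 were called at both levels, with interactions of 0.48 (adjusted p = 0.368) and 0.61 (0.372).

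**Figure D5:**
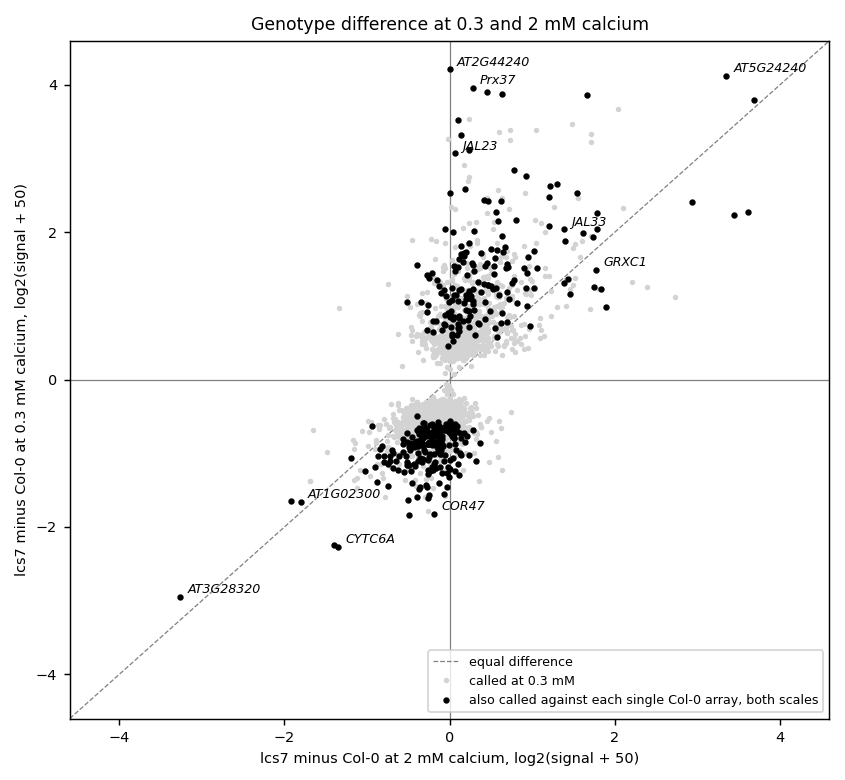
Genotype difference of lcs7 minus Col-0 at 0.3 mM calcium (vertical axis) against the same difference at 2 mM calcium (horizontal axis), both on log2(signal + 50), for genes called at 0.3 mM. Black points were called on both scales and also against each single Col-0 array, and the dashed line marks equal differences. Most points lie near 0 on the horizontal axis, with medians of 0.19 and -0.16, while AT5G24240, GRXC1, AT1G02300 and AT3G28320 lie near the dashed line.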

How the data were processed

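Per the labels' protocols, biotin-labelled cRNA of shoots was hybridised to ATH1 arrays, 3 biological replicates in each of 4 groups. The deposited value of a probe set is a linear signal intensity. The submitters' processing notes name RMA and oligo 1.32.0, but the deposited values have a floor of 0.1 and a 2% trimmed mean of 495.4 to 496.0 in every array, so how they were summarised and scaled is not known here. No further scaling was applied.

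Probe sets naming exactly 1 gene were kept (13513, with 503 naming several and 8730 none), and of several for a gene the one with the highest mean log2 signal. Of the 13356 genes 1559 have a symbol and 11797 a locus only. Differences were fitted in limma 3.58.1 (R 4.3.3) with lmFit and eBayes, 1 mean per group over all 12 arrays, on log2(signal) and log2(signal + 50), and tested on simulated data. Arrays carry no read depth, so their number limits the precision.

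Members and lists were chosen with earlier results of these data known, which is why no list has a test of its own. Named are the 10 genes of the strictest set with the largest change on log2(signal + 50) in each direction whose probe sets are not marked as shared, up to 4 called members of each list with at least 3 measured genes by the same change, 2 by smallest p in lists with no call, and 5 genes in each direction not called against Col-0 replicate 1. Other genes were named after their values were seen. Alternatives covered offsets, normalization, dim genes, probe sets, the variance prior, array weights, a replicate block and left-out arrays. Promoter motifs were not run.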

Additional observations from a re-analysis of the deposited data

Results flagged for a closer look

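A genotype difference that was not the same at the calcium levels was found in 308 genes by the interaction term in limma. Among the genes named above, the difference of lcs7 minus Col-0 was more positive at 0.3 than at 2 mM calcium, on log2(signal), by 7.83 for AT2G44240, 6.69 for AT1G76640, 4.3 for UGT73B4, 4.04 for Prx37, 3.80 for THI2.1, 3.6 for AT1G26390, 3.27 for JAL23 and 3.21 for OSM34. It was also more positive by 2.53 for WRKY6, 2.07 for BGLU46, 1.94 for GLR2.8, 1.82 for CML43, 1.78 for ATGLR1.2, 1.7 for DFR, 1.69 for CYP71B6, 1.25 for AT5MAT, 1.06 for SAG101 and 0.85 for ATERDJ3B.

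The difference was more negative at 0.3 mM for IAA20 (-4.40), AT5G03120 (-1.78), AT1G69523 (-1.73), AAH (-1.73), COR15B (-1.67), COR47 (-1.65), AT3G19850 (-1.55), AGL87 (-1.34), AT2G47880 (-1.28) and TUB5 (-1.05). IAA20 was dim in every array (signals of 5.2 to 59.5), and with the offset its interaction in limma was -1.17 (adjusted p = 0.0348). Among chloroplast and starch genes the same held for NOL (-1.03), CYTC6A (-1.02), PSAN (-0.90), HEME1 (-0.88), CHLM (-0.81), SBE2.2 (-0.81), LPA2 (-0.80), PSBY (-0.79) and SBPASE (-0.76), and it held for the carboxypeptidase gene scpl25 (-0.76). CYTC6A was lower in lcs7 at both calcium levels. What makes the calcium levels differ was not tested.

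Genes described only in the last part below also differed between calcium levels. The interaction was 3.53 for AT4G08780, 2.23 for cwINV6, 1.86 for MSRB9, 1.21 for GH3.17 and 0.82 for GR1, and it was -1.43 for iqd21, -1.18 for STOMAGEN and -1.05 for TAPX.

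Signal was also found outside the genes tested. Of 8730 probe sets that name no gene here, 2184 (25%) were called between lcs7 and Col-0 at 0.3 mM calcium, 1018 higher and 1166 lower, against 2485 of the 13513 that name 1 gene (18.4%) in the same fit over all probe sets.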

How the results depend on the processing

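The number of genes called between lcs7 and Col-0 at 0.3 mM calcium on log2(signal) was 1322 with the 6 compared arrays alone, and 747, 986 and 1121 against a single Col-0 array, or 1378 against Col-0 replicate 1 with the offset of 50, against 2243 with all arrays. It was 1493 to 2226 without 1 array, lowest without lcs7 replicate 3 at 0.3 mM, and 2091 to 2839 with the offset of 50. Median centring moved the split to 859 higher and 1434 lower. The interaction count of 308 was 794 with an offset of 50, 542 with an offset of 20, 780 without the 40% dimmest genes, 781 with an intensity trend and robust prior, and 57 to 398 without 1 array, lowest without lcs7 replicate 3 and highest without Col-0 replicate 1 at 0.3 mM. Against Col-0 replicates 1, 2 and 3 alone it was 0, 89 and 136, and 525 and 570 for replicates 2 and 3 with the offset of 50. Deviations of same-numbered arrays of lcs7 and Col-0 at 0.3 mM correlated at -0.15, -0.14 and -0.06. Pairing by number was therefore not seen, though so few arrays cannot exclude it. With a replicate block 1953 genes were called between the lines, 2695 with the offset of 50, and 102 for the interaction. For the 131 called named genes, none of 3791 combinations of gene and setting changed direction, 415 fell short of the threshold, and 52 genes passed in all 29 settings. The causes were not tested. Probe sets near background and 3 arrays a group limit what could be called, and the scaling behind the deposited signals is not known here.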

Other observations

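The genes of the following paragraphs were chosen after their values were seen. Genes of the ascorbate and glutathione systems changed in both directions. The thylakoid ascorbate peroxidase TAPX had signals of 1036, 963 and 947 in lcs7, against 2286, 2806 and 2280.3 in Col-0 at 0.3 mM calcium (-1.32 ± 0.11, adjusted p = 0.00027). Its stromal relative SAPX had 1699, 1979 and 1881 in lcs7, against 1297, 1211 and 1026 in Col-0 (0.66 ± 0.13, adjusted p = 0.00936). The groups did not overlap in either. GR1, the cytosolic glutathione reductase, rose by 0.87 ± 0.13 (adjusted p = 0.00205), while GR, the organellar one, was called lower (-0.57 ± 0.13, adjusted p = 0.0165). GR missed the threshold without lcs7 replicate 1 or 3 or Col-0 replicate 3 (0.0615, 0.0541 and 0.0589). The methionine sulfoxide reductase MSRB9 had 2318, 2358 and 3170.4 in lcs7, against 446, 322 and 273 in Col-0 (2.93 ± 0.23, adjusted p = 0.000245), opposite to the fall of MSRB6. The glutaredoxin GRXC1 had 1081, 909 and 1006 in lcs7, against 326, 325 and 317 in Col-0 (1.63 ± 0.10, adjusted p = 8.26e-05), and rose at 2 mM calcium as well (2.00).

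Developmental and wall genes outside the lists also changed. STOMAGEN, the mesophyll peptide that promotes stomata, had signals of 569, 684 and 612 in lcs7, against 1601, 2119 and 1802 in Col-0 (-1.56 ± 0.13, adjusted p = 0.000283). PMEAMT, a phosphomethylethanolamine methyltransferase of choline synthesis, fell by 1.18 on the log2 scale (SE 0.13), and the calmodulin-binding IQ-domain gene iqd21 by 1.43 (SE 0.13). The cell wall invertase cwINV6 had 748, 710.0 and 640.0 in lcs7, against 93.7, 82.5 and 92.9 in Col-0 (2.96 ± 0.27, adjusted p = 0.000335). The subtilases SBT3.3 (3.4 ± 0.53) and SBT3.5 (2.22 ± 0.30), the copper amine oxidase CuAO1 (1.26 ± 0.15) and the auxin-conjugating GH3.17 (1.44 ± 0.18) rose without overlap between the lines.

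Some genes were called against Col-0 replicate 1 but not with all Col-0 arrays. GI, the clock gene GIGANTEA, had signals of 648, 692 and 617 in lcs7, against 136, 514 and 371 in Col-0 (adjusted p = 0.103 with all arrays, 0.0125 against replicate 1). The histone gene HTB11 had 1272, 1603 and 1466 in lcs7, against 116, 971 and 1006 in Col-0 (0.16 and 0.000459), and UGT85A5 had 244, 196 and 257 in lcs7, against 27.5, 191 and 230.5 in Col-0 (0.307 and 0.00375). The zinc finger gene STZ had 5187, 2589.6 and 1903 in lcs7, against 416, 1972 and 966 in Col-0 (0.0778 and 0.0423). Replicate 1 was the lowest Col-0 array in all 4. With the offset GI and STZ were called with all arrays (adjusted p = 0.0487 and 0.0341), and HTB11 and UGT85A5 were not (0.0853 and 0.227). At 2 mM calcium HTB11 had 1342, 1053 and 1215 in lcs7, against 83.9, 72.9 and 78.9 in Col-0. For HTB11 and STZ replicate 1 at 0.3 mM was the array nearest to Col-0 at 2 mM. For GI and UGT85A5 it lay below all Col-0 arrays at 2 mM.

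In the RefSeq order of TAIR10.1, 85 measured neighbours of named genes called higher included 13 called higher (15.3%, against 6.99% of all genes), and 61 of named genes called lower included 9 called lower (14.8%, against 9.8%). Among these, Prx37 lies beside AT4G08780 (3.84 ± 0.53, adjusted p = 0.0017), AT1G26390 beside AT1G26380 (2.65 ± 0.43, adjusted p = 0.00349), and BGLU46 beside BGLU45. CHI, AT2G43580 and AT2G43590 follow each other, as do psaJ and rpl33 in the plastid genome. AT2G43580 was thus counted both for CHI and for AT2G43590. Both psaJ and rpl33 were named because they were called, and each was counted for the other. The shares therefore follow in part from the choice of genes, and no conclusion on clustering is drawn from them. Whether probes of neighbouring relatives share transcripts was not tested.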
